A study of Mus musculus with 3 samples.

Results

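The early response genes described here are Egr1, Egr2 and Egr3, Nr4a1, Nr4a2 and Nr4a3, Ier2 and Ier3, Dusp1 and Zfp36. These 10 genes were taken by name. Every non-control spot that carried 1 of these names was used, which gave 13 probes on 22 spots of each array, out of 41174 probes in all. Of the 10 genes, 9 had a probe that was well above background in all 6 libraries and were tested among 22224 genes. Nr4a3 was well above background in 1 library only and is given as a bound.

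The study set multipotent progenitors (MPPs) from Mef2c-deficient mice beside those from control mice in 3 pairs, and its title concerns how Mef2c bears on lymphoid versus myeloid fate. The Mef2c-deficient group, called mutant below, carried the Mx1-Cre transgene with floxed Mef2c alleles (Mx1-Cre Mef2cf/f). The control group carried the floxed alleles and no Cre (Mef2cf/f), so Cre itself and the loss of Mef2c cannot be told apart. The Mx1 promoter answers to interferon and is active in many cell types, not in MPPs alone. Mice of both groups received poly(I:C), an RNA analog that calls up interferon, on 4 days in a row, and marrow was taken 2 days after the last dose. From each sample 15000 cells that lacked lineage markers and carried c-kit and Sca-1 were sorted, and the labels name no further marker to part stem cells from MPPs. Amplified cDNA of a mutant (Cy3) and of a control (Cy5) was hybridised together on each of 3 arrays. No dye swap is given, so dye and genotype cannot be told apart. Nothing in the labels ties the replicates to separate animals, and p-values therefore measure the spread between these samples, which may be technical.

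Immediate early genes are switched on within minutes of a stimulus, without new protein synthesis, by transcription factors already in the cell such as SRF with its ELK partners and CREB. Their mRNAs and proteins are short-lived, and many of the proteins are transcription factors or brakes on the signal that induced them. In blood progenitors, Egr1 is known for its part in stem cell quiescence and in monocyte differentiation, and the NR4A receptors for restraining myeloid growth. MEF2 factors are themselves known activators of Nr4a1 in T cells.

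Upstream sequences are shown for 6 of the genes because several known inputs to this gene class bind close to the start site. RefSeq windows (GRCm38.p6, 250 bases before to 50 after each start site) were found for 7 of the 10 genes. Capitals mark the CArG box bound by SRF, the short CREB element TGACG on either strand, and the MEF2 site. Each line runs 5′ to 3′ on the gene's own strand and ends at the base before the start site. The windows are Nr4a1 at chr15:101266596-101266845 (plus strand), Nr4a2 at chr2:57124004-57124253 (minus strand), Nr4a3 at chr4:48045055-48045304 (plus strand), Dusp1 at chr17:26508473-26508722 (minus strand), Zfp36 at chr7:28379229-28379478 (minus strand) and, for Egr2, which has 5 listed start sites, the third of these at chr10:67537619-67537868 (plus strand).
Nr4a1: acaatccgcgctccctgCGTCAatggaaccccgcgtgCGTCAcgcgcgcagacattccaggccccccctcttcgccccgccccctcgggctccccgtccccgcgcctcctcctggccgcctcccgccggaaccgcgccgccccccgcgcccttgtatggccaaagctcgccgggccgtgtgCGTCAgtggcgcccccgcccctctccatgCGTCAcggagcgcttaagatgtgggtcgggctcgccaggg
Nr4a2: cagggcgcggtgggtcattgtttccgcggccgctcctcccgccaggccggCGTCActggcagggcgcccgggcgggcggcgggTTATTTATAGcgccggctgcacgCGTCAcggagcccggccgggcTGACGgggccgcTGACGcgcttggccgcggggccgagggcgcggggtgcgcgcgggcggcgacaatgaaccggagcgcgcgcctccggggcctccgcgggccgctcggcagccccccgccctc
Nr4a3: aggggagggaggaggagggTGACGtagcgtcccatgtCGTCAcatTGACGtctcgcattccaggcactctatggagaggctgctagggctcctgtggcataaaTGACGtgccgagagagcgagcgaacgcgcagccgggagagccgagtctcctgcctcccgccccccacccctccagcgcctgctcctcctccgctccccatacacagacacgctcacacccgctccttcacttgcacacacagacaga
Dusp1: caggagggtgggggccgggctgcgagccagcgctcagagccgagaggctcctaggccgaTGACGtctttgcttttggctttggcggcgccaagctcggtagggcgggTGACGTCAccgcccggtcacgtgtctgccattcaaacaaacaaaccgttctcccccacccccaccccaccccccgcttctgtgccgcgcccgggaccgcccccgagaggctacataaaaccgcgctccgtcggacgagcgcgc
Zfp36: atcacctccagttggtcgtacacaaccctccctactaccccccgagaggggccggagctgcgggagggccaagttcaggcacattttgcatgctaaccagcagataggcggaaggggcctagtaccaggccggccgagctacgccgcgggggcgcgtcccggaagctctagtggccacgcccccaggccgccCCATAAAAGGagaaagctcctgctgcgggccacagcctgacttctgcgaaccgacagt
Egr2: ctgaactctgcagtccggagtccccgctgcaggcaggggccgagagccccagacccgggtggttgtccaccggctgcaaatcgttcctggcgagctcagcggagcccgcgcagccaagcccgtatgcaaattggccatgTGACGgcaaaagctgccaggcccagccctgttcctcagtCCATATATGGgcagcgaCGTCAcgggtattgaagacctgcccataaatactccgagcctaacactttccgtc
The CArG box was present in Egr2, as CCATATATGG, and in Zfp36, as CCATAAAAGG, against 1.81% of all 27025 genes with a window. The short element TGACG was in 5 of 7 genes, namely Egr2, Nr4a1, Nr4a2, Nr4a3 and Dusp1, against 23% of all genes. In Dusp1 a copy on each strand formed the full palindrome TGACGTCA, which 2.03% of genes hold. The Egr site GCGNGGGCG was found in Nr4a1, Nr4a2 and Zfp36, against 6.27% of genes, so a motif of the Egr proteins lay before other genes of the group. The MEF2 site was found in Nr4a2 alone among the 7, as TTATTTATAG at positions -167 to -158 from the start, where it overlaps a TATAA on the other strand, and 3.7% of all genes hold one. The NF-kappaB site was in Egr2, Nr4a1 and Ier3 (9.55% of genes), TATAA in Egr2, Nr4a2 and Ier3 (28%), CCGGAA in Egr2, Nr4a1 and Zfp36 (16.7%), and the NR4A element AAAGGTCA in 0 of 7 (1.7%). These counts take a gene as holding a motif if any of its windows does. Egr2 has 5 windows and the other 6 genes have 1 each, and its NF-kappaB, TATAA and CCGGAA matches lie in windows other than the one shown. Both strands were searched, and a match describes letters, not binding.

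Values follow 2 scales. A level is the log2 intensity of 1 library's channel after normalization and is compared only within a gene. A ratio is the log2 ratio of the mutant over the control of the same array, so a negative ratio means lower in the mutant. The arrays gave 73.4% to 80.4% of probes well above background per library, with 0 saturated spots, and their number, 3, limits the precision. Control library 1 stood apart from the other libraries in the genes described here. The ratios of the 9 tested genes and the counts over them are therefore also given without array 1. So are the counts over each list at an unadjusted p under 0.05. In the authors' deposited table the ratios of array 2 have the other sign, relative to the scanner's Cy5 over Cy3, than those of arrays 1 and 3 (correlation across spots 0.935, against -0.947 and -0.939), although the labels give the same dyes. Directions below follow the labels, and if array 2 was in fact swapped its ratios have the opposite sign. All 9 markers of the sorted cells, among them Kit, Ly6a (Sca-1) and Cd34, were well above background in all 6 libraries.

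Mef2c itself was measured at 12.99, 13.09 and 12.83 in mutants 1, 2 and 3 and at 12.91, 12.99 and 13.78 in controls 1, 2 and 3. The groups overlapped, and the mean ratio was -0.26 ± 0.61 (SD, n = 3; adjusted p = 0.741, limma), with -0.42 without array 1 and -0.33 with array 2 turned. The floxed part of the gene is not named in the labels, so this probe does not check the deletion.

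Across the 9 tested genes the mutant lay far below the control on array 1, less so on array 2 and not on array 3. The median ratio was -4.93 on array 1 (range -6.11 to -3.31), -0.86 on array 2 (-2.39 to -0.065) and 0.19 on array 3 (-0.53 to 1.40), beside -0.068, -0.055 and 0.004 over all genes. By limma with Benjamini-Hochberg adjustment over all genes, 0 of the 9 had an adjusted p under 0.05, as did 0% of the genes tested. Their adjusted p-values ran from 0.464 to 0.634. Egr3 and Zfp36, 2 of the 9, had an unadjusted p under 0.05 (10.1% of all genes did). Both were lower in the mutant, as 5.32% of all genes were at that p, and 0 members were higher, against 4.81%. That count of 2 was 1 without array 1, 5 without array 2, 6 without array 3 and 0 with array 2 turned. The share of all genes at that p was 5.84%, 8.14%, 12.3% and 2.9%, in the same order. In 8 of the 9 the SD over arrays was larger than the size of the mean ratio. In a bulk library, fewer cells expressing a gene and less RNA per cell cannot be told apart.

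**Figure D1:**
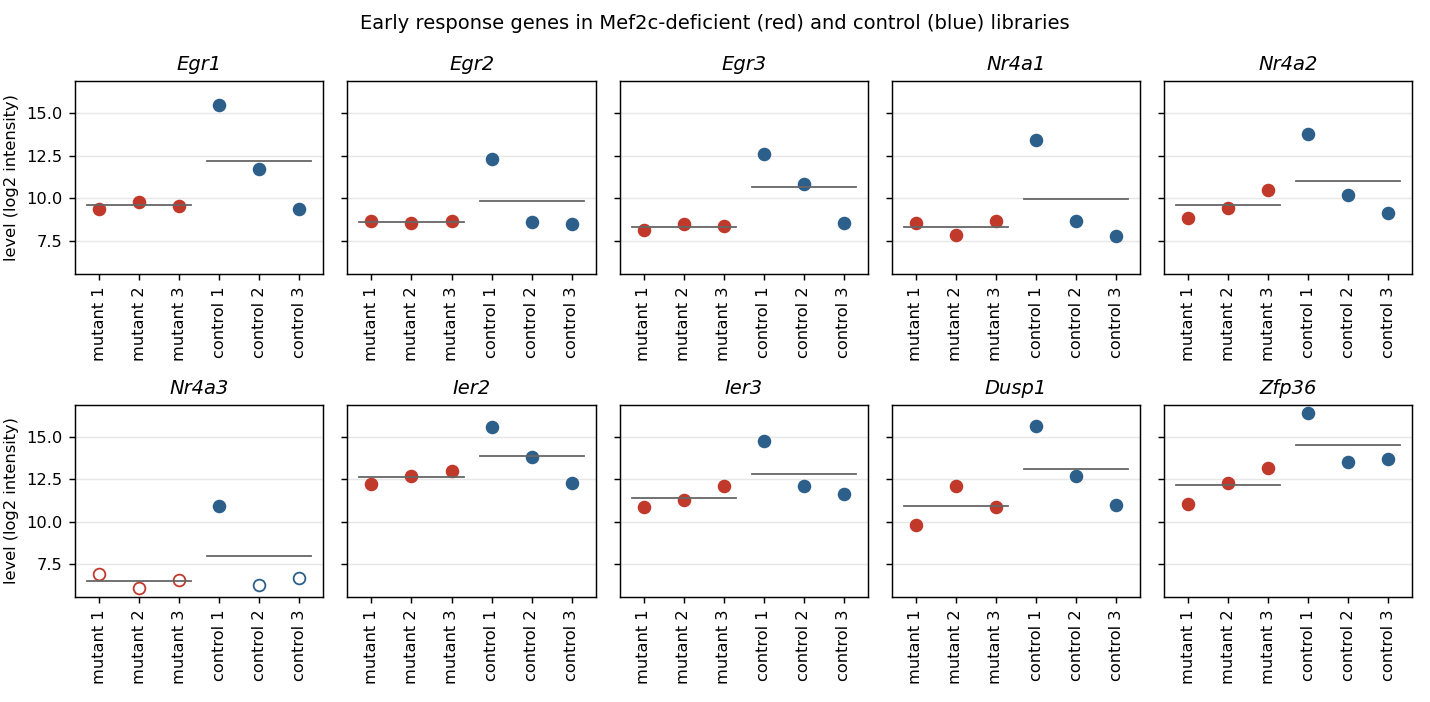
Level (log2 intensity, vertical axis) of the 10 early response genes in each of 6 libraries, mutants in red and controls in blue. Lines are group means and open circles are values not well above background; control 1 is the highest point in every panel.

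The Egr genes encode zinc finger transcription factors that bind the GC-rich site searched for above. Egr1 was at 9.38, 9.79 and 9.55 in mutants 1, 2 and 3, against 15.49, 11.70 and 9.36 in controls 1, 2 and 3. Control 1 was far above all other libraries, control 2 lay between, and control 3 was the lowest of the 6, so the groups overlapped. The ratio was -6.11, -1.91 and 0.19 on arrays 1, 2 and 3, and its mean was -2.61 ± 3.21 (SD, n = 3; adjusted p = 0.495, limma). On array 1 this is a level 69.2-fold lower in mutant 1 than in control 1, the third lowest ratio of all genes on that array. Without array 1 the mean ratio was -0.86.

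Egr2, which acts in myelin and in lymphocyte and macrophage differentiation, was at 8.64, 8.55 and 8.67 in the mutants, against 12.33, 8.61 and 8.48 in the controls. The other 5 libraries lay within 0.19 of each other, and control 1 was 3.66 above the next. The mean ratio was -1.19 ± 2.17 (SD, n = 3; adjusted p = 0.581, limma), and it was 0.063 without array 1. Egr2 had 10 repeat spots per array, and their ratios averaged -3.69 ± 0.11 (SD, 10 spots) on array 1, -0.065 ± 0.052 (9 spots) on array 2 and 0.19 ± 0.13 (10 spots) on array 3. The spread between spots was thus far smaller than the spread between arrays.

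Egr3, a relative induced in lymphocytes and neurons, was at 8.13, 8.47 and 8.35 in the mutants, against 12.61, 10.85 and 8.54 in the controls. Here all mutants lay below all controls, though control 3 was only 0.19 above mutant 3 of the same array. Ratios were -4.48, -2.39 and -0.19, with a mean of -2.35 ± 2.15 (SD, n = 3; unadjusted p = 0.0213, adjusted p = 0.464, limma). As labelled, Egr3 ranked 21 from the lowest both on array 1 and on array 2, and with array 2 turned it ranked 21 from the highest there. Without array 1 its mean ratio was -1.29 as labelled, the lowest of the 9 genes, and 1.098 with array 2 turned, the highest of the 9. Another Egr3 probe, left out as the dimmer one, was well above background in 1 mutant and 2 controls and had ratios of -3.93, -0.73 and -0.041.

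The NR4A genes encode orphan nuclear receptors whose activity is set mainly by how much protein is made. Nr4a1 (Nur77) was at 8.51, 7.80 and 8.64 in the mutants, against 13.44, 8.66 and 7.79 in the controls. Control 1 was 5.21 above the mean of the other controls, the largest such gap of the 9 genes, and control 3 was the lowest library. Nr4a1 had a mean ratio of -1.64 ± 2.97 (SD, n = 3; adjusted p = 0.572, limma), against -0.004 without array 1.

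Nr4a2 (Nurr1) was at 8.84, 9.43 and 10.49 in the mutants, against 13.80, 10.20 and 9.10 in the controls. Its ratio was -4.96, -0.76 and 1.40 on arrays 1, 2 and 3, so array 3 ran the other way, with the highest ratio of the 9 genes on that array. The mean was -1.44 ± 3.23 (SD, n = 3; adjusted p = 0.634, limma), and 0.32 without array 1.

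Nr4a3 (Nor1) was not well above background in any mutant or in controls 2 and 3. Its probe read 6.95, 6.07 and 6.58 in the mutants, against 10.95, 6.29 and 6.68 in the controls. Control 1 was therefore the single library in which Nr4a3 was measured, and on array 1 it was at least 16-fold higher in the control than in the mutant. That bound takes, for mutant 1, the higher of the probe's own level and the lowest level well above background. On arrays 2 and 3 neither library was well above background, so no bound is given for them or for the mean. All 3 NR4A genes thus had their highest value in control 1.

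Ier2 and Ier3 encode small, rapidly induced proteins. Ier2, a nuclear protein, was at 12.25, 12.70 and 13.004 in the mutants, against 15.56, 13.79 and 12.26 in the controls. Mutant 1 and control 3 had nearly the same level at the low end, and control 1 was the highest. The mean ratio was -1.22 ± 2.03 (SD, n = 3; adjusted p = 0.558, limma), and -0.18 without array 1. The dimmer Ier2 probe gave -2.55, -0.55 and 1.41 on arrays 1, 2 and 3, the same order. It was not well above background in control 3, so its ratio on array 3 was taken against background.

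Ier3 (IEX-1), which modulates survival and ERK signalling, was at 10.84, 11.30 and 12.10 in the mutants, against 14.75, 12.13 and 11.64 in the controls. Apart from control 1, the libraries lay within 1.29 of each other and the groups were mixed. The mean ratio was -1.43 ± 2.24 (SD, n = 3; adjusted p = 0.539, limma), and -0.19 without array 1.

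Dusp1 and Zfp36 act as brakes on the response. Dusp1 encodes a nuclear phosphatase that switches off the p38, JNK and ERK kinases. It was at 9.79, 12.12 and 10.88 in the mutants, against 15.65, 12.69 and 10.98 in the controls. Each mutant was below its own control, but mutant 2 was above control 3, so the groups overlapped. The ratio was -5.86, -0.58 and -0.10, with a mean of -2.18 ± 3.20 (SD, n = 3; adjusted p = 0.518, limma), and -0.34 without array 1. On array 1 the level in mutant 1 was 58-fold lower than in control 1, the fifth lowest ratio of all genes there.

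Zfp36 encodes tristetraprolin, which binds AU-rich mRNAs of cytokines and early genes and speeds their decay. It was at 11.06, 12.31 and 13.16 in the mutants, against 16.38, 13.52 and 13.68 in the controls. All mutants lay below all controls here and for Egr3, 2 of the 9 genes, as they did for 11.7% of all genes. In 0 of the 9 did all mutants lie above all controls, as they did for 7.22% of all genes. Without array 1 the same 2 genes did not overlap, beside 20.2% of all genes with mutants lower. With array 2 turned 0 of the 9 had groups apart in either direction, beside 3.86% of all genes with mutants lower and 4.22% with mutants higher. Ratios were -5.32, -1.21 and -0.53, with a mean of -2.35 ± 2.59 (SD, n = 3; unadjusted p = 0.041, adjusted p = 0.482, limma), and -0.87 without array 1. The dimmer Zfp36 probe gave -4.90, -1.37 and 0.0077, so the probes differed in sign on array 3.

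**Figure D2:**
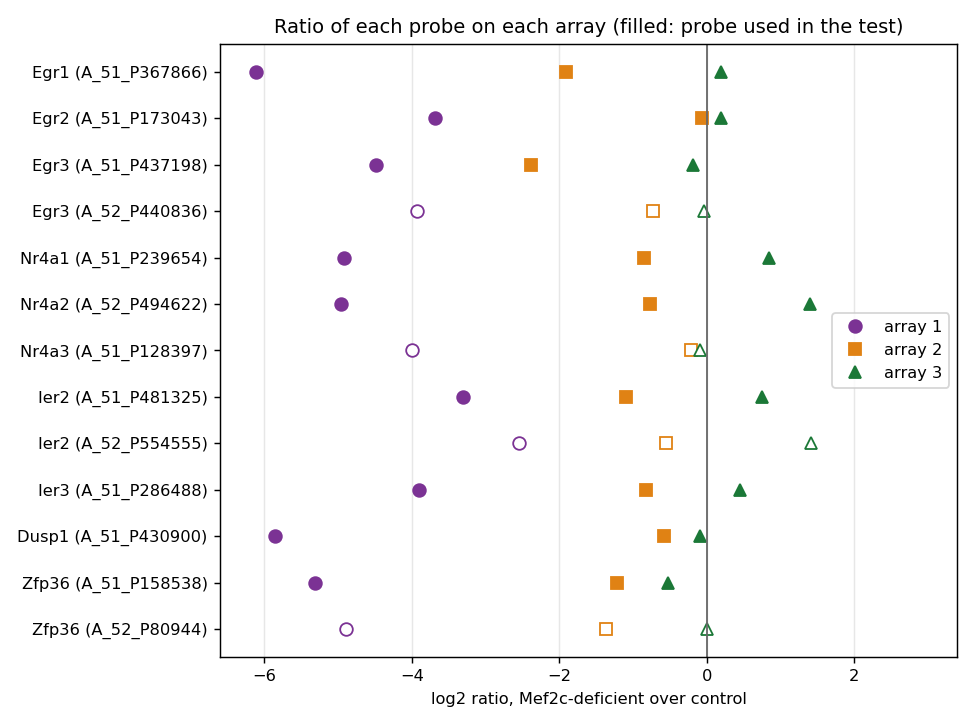
Log2 ratio of mutant over control (horizontal axis) for each of the 13 probes on arrays 1, 2 and 3, with filled symbols for the probe used in the test. Every probe lies far to the left on array 1, and array 3 lies to the right of array 2 for every probe.

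Zfp36, Egr3 and Dusp1 were the 3 genes with a ratio below 0 on all 3 arrays, as were 20.3% of all genes. On array 1 all 9 had a ratio of -3 or lower, which 62 genes (0.279%) had. On array 2 no member reached -3 (5 genes, 0.0225%), and on array 3 none did (1 gene, 0.0045%). All 9 were below 0 on array 1, where 54.3% of all genes were, and all 9 on array 2, where 55.1% were. They were below 0 on both of these arrays together, as 36.6% of all genes were, and 3 of 9 were below 0 on array 3, where 49.6% were. Turning array 2 would place all 9 above 0 on that array.

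Compared within each dye, control 1 was the library that differed from its group. It was the highest of the 6 libraries for 9 of 9 genes, as it was for 26% of all genes. It lay between 2.53 (Ier2) and 5.21 (Nr4a1) above the mean of the other controls, with a median of 3.78, against 0.045 over all genes. For 5 of the 9, namely Egr1, Egr2, Nr4a1, Nr4a2 and Dusp1, the gap was 3 or more, which 0.176% of all genes reached. Mutant 1 differed less from the other mutants, with a median of -0.60 and a range from -1.71 (Dusp1) to 0.29 (Nr4a1), and was the lowest library for 6 of 9 genes (22.7% of all genes). Control 2 was above control 3 by a median of 1.098, and was the second highest library in 6 of the 9.

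**Figure D3:**
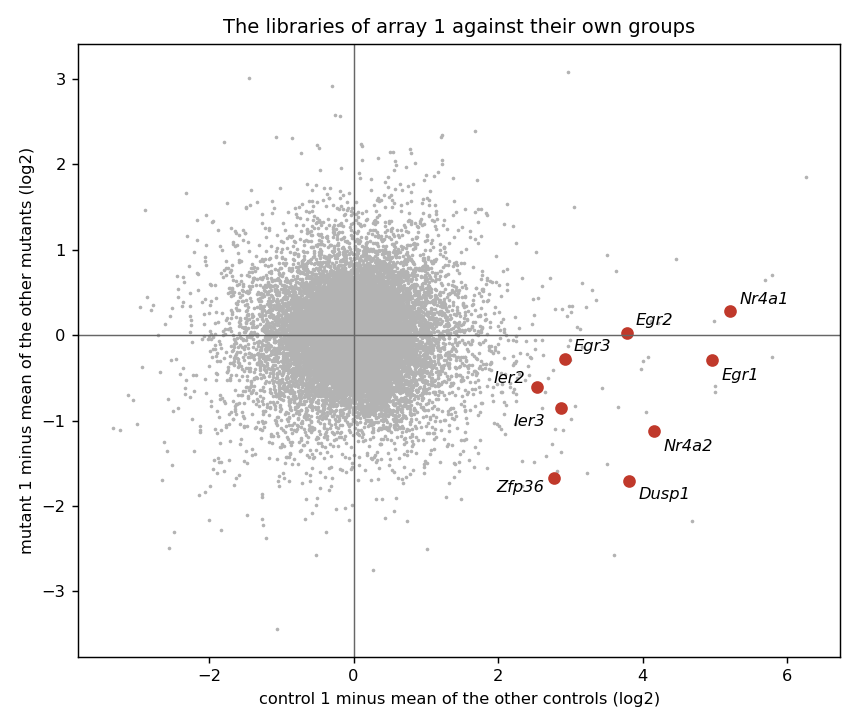
Control 1 minus the mean of the other controls (horizontal axis, log2) against mutant 1 minus the mean of the other mutants (vertical axis, log2), for all genes in grey and the 9 tested early response genes in red. The red points lie 2.53 to 5.21 to the right of 0, but only -1.71 to 0.29 from it on the vertical axis.

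With array 1 left out, the ratios lay much nearer to 0. The mean ratio of arrays 2 and 3 had a median of -0.19 over the 9 genes, from -1.29 (Egr3) to 0.32 (Nr4a2). At an unadjusted p under 0.05 there was then 1 member by limma, Zfp36, where 5.84% of all genes were, and the adjusted p-values of the 9 ran from 0.836 to 1. Apart from control 1, the other 5 libraries spanned 0.19 (Egr2) to 2.90 (Dusp1), with a median of 1.65.

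Related genes from lists of the pathway were read for the same values. The lists were set up with earlier results of these data known. By limma 0 genes of any list had an adjusted p under 0.05. The signalling and transcription factors that act upstream, among them SRF, the ELK factors, CREB and the MAP kinases, had a median ratio of -0.053 over 19 of 20 genes measured, with 2 lower and 0 higher at an unadjusted p under 0.05. Crem, which encodes CREB-like activators and repressors, had -1.66, -1.15 and -0.96 on the 3 arrays, and the SRF partner Elk4 -1.17, -0.89 and -0.45. Both of these inputs were thus lower in the mutant on each array as labelled, though neither passed (adjusted p = 0.461 and 0.463, limma). Their means were -0.49 and -0.24 with array 2 turned.

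Partners and repressors of the Egr and NR4A proteins had a median of -0.064 over 7 of 8 genes, with 0 at an unadjusted p under 0.05. Their largest mean ratios were -0.37 ± 0.33 for the coactivator-binding gene Cited2 and -0.37 ± 0.32 for the retinoid receptor gene Rxrg (SD, n = 3). The MEF2 factors, taken with the class IIa deacetylases that bind and repress them, had a median of -0.26 over 7 of 8 genes, with 1 higher at an unadjusted p under 0.05. That gene was Hdac4, at 0.95, 1.17 and 0.56 on the 3 arrays (adjusted p = 0.461, limma), with a mean of 0.12 with array 2 turned, and Hdac9 had a mean of -0.62 ± 0.74 (SD, n = 3).

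Family relatives of the 10 genes went both ways. Over 12 of 14 relatives the median ratio was -1.23, -0.40 and 0.038 on arrays 1, 2 and 3, with 2 lower and 1 higher at an unadjusted p under 0.05, and 6 of the 12 were highest in control 1. Zfp36l1, a relative of tristetraprolin, was at 10.54, 10.29 and 10.76 in the mutants, against 13.44, 11.75 and 11.42 in the controls. Its groups did not overlap, and its mean ratio was -1.68 ± 1.13 (SD, n = 3; adjusted p = 0.461, limma). The phosphatase gene Dusp2 had -2.73, -1.83 and 0.42. Dusp16, the gene higher at that p and named after its values were seen, is another phosphatase of MAP kinases and had 1.91, 1.06 and 0.59 (adjusted p = 0.461, limma). The mean ratio was -0.70 for Zfp36l1 and 0.48 for Dusp16 with array 2 turned.

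Other immediate early genes were high in control 1 as well. The AP-1 and ATF factors had a median ratio of -2.59, -0.27 and -0.36 on the 3 arrays over 11 of 11 genes, and 10 of the 11 were highest in control 1. An unadjusted p under 0.05 was reached by 2 of the 11, both lower in the mutant. Maff, highest in control 1, was well above background in 0 mutants and 2 controls. It passed the filter through the controls only. Atf3 was at 8.17, 8.52 and 8.34 in the mutants, against 14.82, 8.78 and 9.29 in the controls, and Fos had ratios of -6.49, -0.64 and -0.0041. Of 31 further early response genes measured, of 33 listed, 28 were highest in control 1, and their median ratio was -2.45, -0.30 and 0.033, with 3 lower at that p. Rgs1, which damps G protein signalling, was at 10.13, 11.73 and 11.26 in the mutants, against 15.68, 13.49 and 12.13 in the controls, so its groups did not overlap as labelled.

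Cytokine and other mRNAs known as targets of tristetraprolin were also higher in control 1, where Zfp36 itself was highest. Their median ratio was -3.66, -0.66 and 0.029 on arrays 1, 2 and 3 over 8 of 12 genes measured, with 3 lower at that p, and 7 of the 8 were highest in control 1. The chemokine gene Ccl3 was at 9.18, 9.63 and 10.08 in the mutants, against 13.48, 11.48 and 10.19 in the controls. Ptgs2, an enzyme of prostaglandin synthesis, was not well above background in any mutant and reached 12.54 in control 1. Cxcl2 was well above background in 1 mutant and 2 controls. Both genes passed the filter through the controls only, so their ratios were partly taken against background. Both count in the median and among the genes highest in control 1, here and in the list before it. Tnf, Cxcl2 and Ptgs2 are in this list and the one before it, and Tnf is among the 3 lower in each. The 2 lists are therefore not separate. Heat shock genes, which answer to protein damage, had a median of -0.27, 0.19 and -0.096 over 10 of 11 genes measured, and 5 of 10 were highest in control 1.

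Without array 1 these lists lay nearer to 0. Their median ratio was then -0.26 for AP-1 and ATF factors, -0.11 for the further early response genes, -0.47 for the tristetraprolin targets and -0.086 for the relatives, beside -0.023 over all genes. At an unadjusted p under 0.05 they had 0, 2, 1 and 1 genes lower in the mutant and 0, 2, 0 and 1 higher, in the same order of lists. Over all 22211 genes of that fit, 663 were lower and 634 higher. The upstream factors then had 1 lower and 0 higher at that p, the partners and repressors 0 of either, and the MEF2 and deacetylase list 0 lower and 1 higher. With array 2 turned, the 4 lists had 0, 1, 0 and 0 lower and 0 higher in each, beside 308 lower and 336 higher of 22224 genes. In the same fit the upstream factors had 0 lower and 1 higher, and the other 2 lists 0 of either.

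**Figure D4:**
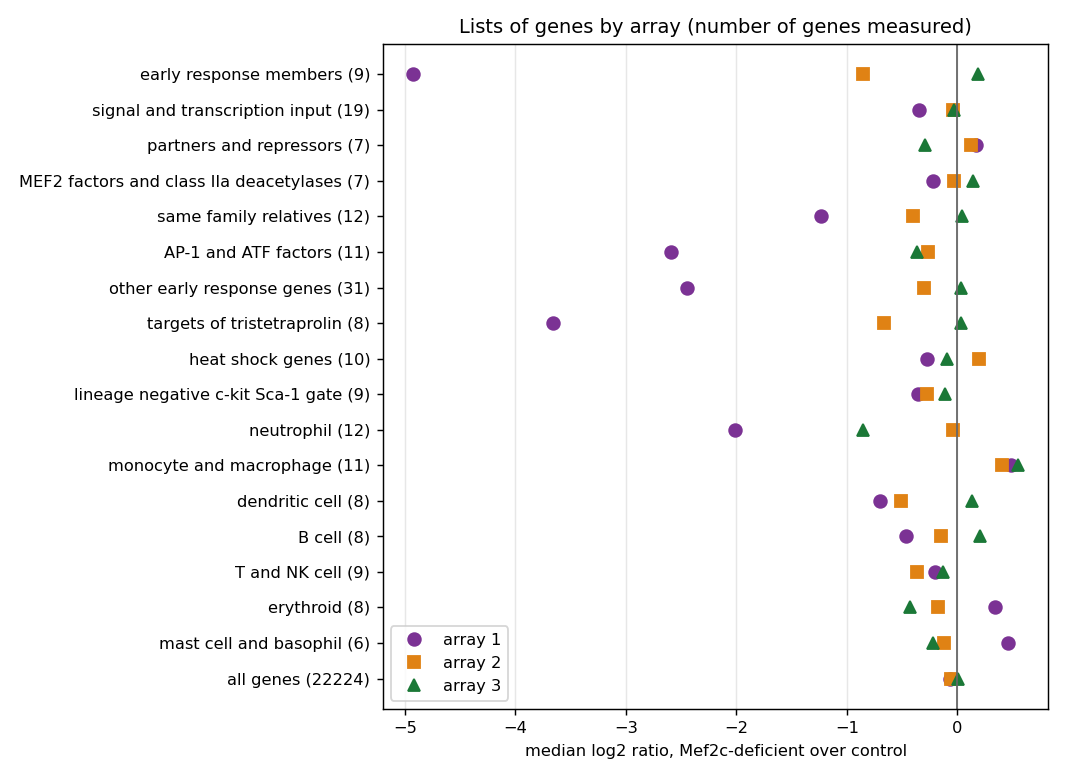
Median log2 ratio of mutant over control (horizontal axis) on each array for each list of genes, with the number of genes measured in brackets. The early response genes, their relatives, AP-1 factors, tristetraprolin targets and neutrophil markers lie well below 0 on array 1, and all genes lie near 0 on every array.

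Markers of other blood cells were measured in the same libraries. Neutrophil markers moved with control 1: 12 of 13 were measured, 9 of these were highest there, and their median lay 2.42 above the other controls. In the mutant 4 of the 12 were lower and 0 higher at an unadjusted p under 0.05 (5.32% and 4.81% of all genes). Without array 1 it was 2 lower and 2 higher, beside 663 and 634 of 22211 genes. With array 2 turned it was 4 lower and 0 higher, beside 308 and 336 of 22224 genes. The log2 of their summed level was 14.04, 14.31 and 14.25 in mutants 1, 2 and 3, against 16.72, 14.17 and 14.63 in controls 1, 2 and 3. Ngp, a granule protein gene, had ratios of -4.33, 0.57 and -2.09, and S100a9, a calcium-binding protein of neutrophils, -3.65, -0.12 and -2.04. Lcn2 and Mmp8 were the 2 markers higher at that p without array 1. Lcn2 had ratios of -0.95, 1.72 and 0.90, and Mmp8 -1.67, 0.88 and 1.14. Of the 12 markers, 11 were well above background in all 6 libraries and Retnlg in 1 mutant and 2 controls. Retnlg is among the 4 lower in the main analysis. It passed the filter through the controls only, so its ratios were partly taken against background. Their part in the early response values was not tested.

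By the median gap, the other cell types moved less with control 1. Its median gap to the other controls was -0.13 for monocyte and macrophage markers (11 of 12 measured, 2 highest in control 1), 0.23 for dendritic cell markers (8 of 10, 4 highest), 0.66 for B cell markers (8 of 9, 5 highest), 0.018 for T and NK cell markers (9 of 10, 1 highest), 0.075 for erythroid markers (8 of 9, 2 highest), -0.31 for mast cell and basophil markers (6 of 6, 0 highest) and -0.28 for the markers of the sorted cells (9 of 9, 1 highest). The erythroid markers were split, and the log2 of their summed level was 14.57, 13.44 and 13.71 in the mutants, against 15.43, 14.33 and 14.14 in the controls. Hba-a1 and Slc4a1 were the 2 highest in control 1, at 15.01 and 12.06, and Alas2 was lowest there, at 8.15. Control 1 thus did not have more signal for every kind of cell marker.

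The levels of many other genes followed the same pattern over the 6 libraries. Pearson's r was taken between each gene's levels and the mean of the 9 genes' centred levels, among 1343 other genes with a range of at least 2 over the libraries. It is a description over 6 libraries in which control 1 carries most of the range, and mutant and control of 1 array share a hybridisation. An r over 0.9 was found for 117 genes. The 10 highest were Bsdc1 (0.994), Mcl1 (0.989), Ghrl (0.989), Fosr (0.988), Cd69 (0.987), Gabrg3 (0.987), TC1435238 (0.983), Stard6 (0.983), Myadm (0.978) and NAP123201-1 (0.977), the Fosr, TC and NAP names being those of the array's design. Mcl1, which encodes a short-lived survival protein and is also in the list of further early response genes, was at 12.74, 12.79 and 13.03 in the mutants, against 14.90, 13.58 and 13.08 in the controls. Cd69, an early activation antigen of lymphocytes, was at 9.61, 10.51 and 10.37 in the mutants, against 13.59, 10.75 and 10.31 in the controls.

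**Figure D5:**
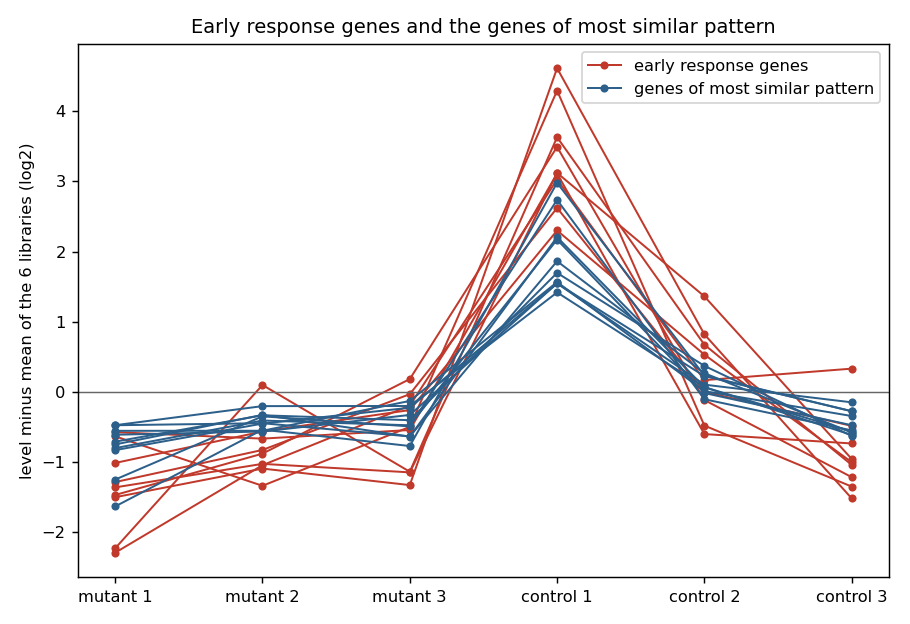
Level minus the gene's mean over 6 libraries (vertical axis, log2) in each library, for the 9 tested early response genes (red) and the 10 genes of most similar pattern (blue). All lines peak in control 1; the red lines average -1.37, -0.815 and -0.55 in mutants 1, 2 and 3 and 3.36, 0.26 and -0.88 in controls 1, 2 and 3.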

How the data were processed

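Single-channel levels and ratios were measured for 6 libraries on 3 two-colour Agilent arrays, all on 1 slide. The deposited scanner files hold the mean foreground and median background intensity of each spot on a linear scale. Per the file headers they come from Agilent Feature Extraction 9.5.1.1. They also hold processed signals, which Feature Extraction background-subtracted and dye-normalized, a log10 ratio of Cy5 over Cy3 and flags for outliers and background, again as the headers state. The authors also deposited log2 ratios by spot, used here as an alternative. The scale of this table was taken as log2 because bright spots rose by 3.27 to 3.34 per log10 unit of the scanner ratio (log2 gives 3.32). Its column medians were -0.0148, 0.0129 and -0.00249. Its direction was read from the correlation with the scanner ratio, and its normalization was not given in the sources at hand. Among tools, the submitters' processing notes list limma without a version.

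Here limma 3.58.1 in R 4.3.3 was used: normexp background correction (offset 50), loess within arrays with control spots at weight 0, and Aquantile between arrays for levels. Outlier spots (252 to 331 per array) were left out. Of all probes, 32911 stood well above background in 1 of the dyes on 2 or more arrays and were kept, and each gene took its brightest kept probe. Names came from RefSeq accessions (22951 probes), symbols (6659) or synonyms (3109), and 8455 kept the file's name. Ratios were tested against 0 (lmFit, eBayes) with Benjamini-Hochberg adjustment over all genes at 0.05. A mutant and a control are paired by sharing an array. The script was tested on simulated ratios. Each scanner file had 1 missing line break between spots, which was restored.

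The members and all gene lists were chosen with earlier results of these data known. Named genes are the 10 members, Mef2c, the 2 largest mean ratios of each list, and the 10 genes of most similar pattern. Lcn2, Mmp8, Retnlg, Maff, Alas2, Axl, Tnf and Cxcl2 were named after their values were seen. Alternatives covered background correction, normalization, intensity column, deposited ratios, the filter, probes per gene, the direction of array 2, unpaired channels and each array left out.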

Additional observations from a re-analysis of the deposited data

How the results depend on the processing

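Under every alternative run 0 members passed an adjusted p under 0.05, with the smallest member's adjusted p between 0.318 (median centring) and 1. Of 135 member ratios under alternatives, 122 kept their direction, Nr4a1 without array 1 among them at -0.004. The other 13 all came from settings that left out array 1 or control 1. The remaining settings keep array 1, where each of the 9 genes had its most negative ratio, so a kept direction there says little. Without array 1 the ratio was 0.063 for Egr2 and 0.317 for Nr4a2, and leaving out 1 array in turn gave -1.876 to 0.063 for Egr2 and -2.862 to 0.317 for Nr4a2. Leaving out 1 array gave a median member ratio from -2.893 to -0.188. Members at an unadjusted p under 0.05 were 1 without array 1, 5 without array 2 and 6 without array 3 (5.84%, 8.14% and 12.3% of all genes). Members lower on every array left were 3 without array 1 (6241 of 22211 genes), 3 without array 2 (share of all genes not counted) and 9 without array 3 (36.6%). Main values were 2 members at an unadjusted p under 0.05 and 3 lower on every array (10.1% and 20.3% of all genes). With array 2 turned both counts were 0, beside 2.9% of all genes and 2099 of 22224 genes. The first count was 4 with median centring (12.9% of all genes). It was 1 with the mean of all kept probes (10.4%), with no filter on dim probes (9.83%), with the processed signals (9.11%), and with separate channels without control 1 (9.3%). The settings without control 1, and with array 2 turned and array 1 left out, were chosen after seeing the data. Separate channels without control 1 gave 0.073 for Egr2 and 0.091 for Nr4a1. Array 2 turned and array 1 left out gave 0.239 for Dusp1, 1.051 for Egr1, 0.128 for Egr2, 1.098 for Egr3, 0.919 for Ier2, 0.641 for Ier3, 0.854 for Nr4a1, 1.08 for Nr4a2 and 0.343 for Zfp36. The median was 0.854, with 3 members higher at an unadjusted p under 0.05 (396 of 22211 genes) and 0 lower on every array. The cause was not tested. Without the replicate block, as unpaired separate channels, 2 members had an unadjusted p under 0.05 (11.8% of all genes). The median ratio was again -1.645, which leaving out the pairing cannot change. With 0 genes called in either fit, the calls do not show what the pairing did. Over all genes, 1183 lay lower and 1069 higher in the mutant at an unadjusted p under 0.05 in the main analysis. With median centring these were 2319 and 552, with a median over all genes of -0.176, and with array 2 turned 308 and 336. Without array 1 they were 663 and 634. With all 3 arrays on 1 slide, a slide block could not be fitted. Signal over background limits Nr4a3, measured in 1 library.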

Other observations

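Markers of monocytes and macrophages were not highest in control 1 as a list, with 2 of 11 highest there. Among these markers 4 of 11 were higher and 0 lower in the mutant as labelled at an unadjusted p under 0.05, beside 4.81% of all genes higher. Of these 4, Axl was well above background in 3 mutants and 0 controls, so its ratios were taken against background. It passed the filter through the mutants only. Axl is also among the genes above 0 on all 3 arrays and among those higher without array 1. Above 0 on all 3 arrays were 5 of the 11, beside 3371 of 22224 genes. Fcgr1, an IgG receptor gene, was at 10.56, 9.99 and 10.37 in the mutants, against 9.31, 9.10 and 9.11 in the controls, so its groups did not overlap. Adgre1, the F4/80 antigen gene, had ratios of 0.94, 1.23 and 0.84. Without array 1 the count was again 4 higher and 0 lower. With array 2 turned it was 1 higher and 1 lower, 1 of the 11 was above 0 on every array, and the mean ratio was 0.54 for Fcgr1 and 0.18 for Adgre1. Neither passed over all genes (adjusted p = 0.461 for both, limma).

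At an unadjusted p under 0.05, 2 genes of the sorted cells' markers were higher and 2 lower in the mutant, 1 dendritic cell marker was higher and 2 lower, 0 T and NK cell markers were higher and 1 lower, 0 erythroid markers were higher and 2 lower, and 0 markers of B cells or of mast cells and basophils were either. With array 2 turned all of these counts were 0. Without array 1, the sorted cells' markers had 1 higher and 1 lower, and so did the dendritic cell markers. T and NK cell markers then had 0 higher and 1 lower, and erythroid markers 0 higher and 3 lower. Markers of B cells and of mast cells and basophils had 0 of either, beside 634 higher and 663 lower of 22211 genes. Heat shock genes had 1 higher in the main analysis, 0 of either without array 1, and 1 lower with array 2 turned. Several of the genes below were highest in control 1, among them Cd74, Hba-a1, Slc4a1, Vpreb1 and Dnajb1. The cytokine receptor gene Flt3, a marker of the sorted cells and of dendritic cells, had ratios of -1.02, -1.26 and -1.19, and Slamf1 of the sorted cells had 1.003, 2.28 and 0.20. The class II invariant chain gene Cd74 had -2.16, -0.68 and -0.44. The hemoglobin gene Hba-a1 had -1.94, -2.55 and -0.54 and Slc4a1, the red cell anion exchanger, -2.32, -0.93 and -0.72. The T cell receptor component gene Cd3g had -0.97, -0.76 and -0.57 and the NK receptor gene Klrb1c 0.75, -2.07 and -1.93. The pre-B cell receptor gene Vpreb1 had -1.35, -0.66 and 0.44 and the B cell receptor component gene Cd79b 0.67, -0.17 and 0.95. Of the heat shock genes, Dnajb1 had -1.59, -0.32 and -0.10 and Hspe1 0.42, 0.75 and 0.47. The mast cell receptor gene Ms4a2 had 2.02, -0.11 and -0.22 and Il4 0.44, -0.13 and 0.61. None of these genes had an adjusted p under 0.05 by limma, where 2252 of 22224 genes had an unadjusted p under 0.05.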
